A study of Mus musculus with 30 samples.

Results

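The 7 genes described here, Insig1, Insig2, Scap, Srebf1, Srebf2, Stard4 and Npc1, encode proteins that sense, answer to or move cholesterol inside the cell. They were chosen by symbol, with earlier results of these data known, and are 7 of 16025 genes in the table. All 7 passed the filter on low counts that kept 12184 genes for testing. RNA was sequenced from C2C12 myotubes, the fused muscle cells formed when a mouse myoblast line is switched to low-serum medium. The line's genotype is given as wild type, all cultures come from this 1 cell line, and the labels describe 3 biological replicate libraries in each of 10 groups. In 4 groups the cells received a Korean Red Ginseng preparation and then D-galactose, a sugar used to bring on ageing-like changes in cultured cells: the water extract (RGW_Dgal), its saponin fraction (SFr_Dgal), its non-saponin fraction (NSFr_Dgal) or the single saponin ginsenoside Rb2 (Rb2_Dgal). Another 4 received the preparation alone (RGW, SFr, NSFr, Rb2), 1 received D-galactose alone (Dgal), and the vehicle group is called control. Extract and fractions were used at 100 µg/mL and Rb2 at 20 µM, each for 12 h, and D-galactose at 20 mg/mL for 24 h. Nothing says whether the replicates came from separate cultures, so p-values measure the spread between these libraries, which may be technical. The labels give 12 h for a preparation alone and 12 h plus 24 h with D-galactose, and harvest times are not stated. The sugar and culture time therefore cannot be told apart between these groups. No time is given for vehicle alone, so culture time may also differ in comparisons with control. Below, raised and lowered describe differences between groups and not causes.

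As background, cells keep membrane cholesterol steady through a feedback loop in the endoplasmic reticulum. Scap carries the precursors of the SREBP transcription factors, products of Srebf1 and Srebf2, to the Golgi, where 2 proteases release the active factor. When sterol is plentiful, Insig1 or Insig2 holds Scap back, and when sterol is short the released factors switch on genes of cholesterol synthesis, LDL uptake and fatty acid synthesis, Insig1 and Stard4 among them. Npc1 lets cholesterol leave the lysosome after uptake, and Stard4 is a soluble protein that carries sterol between membranes. Differentiated muscle cells make and take up cholesterol for their plasma membrane and T-tubules.

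Among the 7 genes, Insig1 varied most over the 10 groups, and its highest group mean was 4.97 times its lowest. The same ratio was 1.96 for Stard4, 1.56 for Srebf1, 1.23 for Scap, 1.2 for Insig2, 1.16 for Srebf2 and 1.14 for Npc1. Insig1, Stard4 and Srebf1 were highest after the saponin fraction, with and without D-galactose. Insig1 was also lower with D-galactose than without it in all 5 settings where that could be compared.

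The sequences before the transcription starts of both INSIG genes and both SREBP genes are shown because the paralogues differed in response, Insig1 more than Insig2 and Srebf1 more than Srebf2. Each line gives the 250 bases before the RefSeq start nearest the principal transcript (GRCm38.p6), 5′ to 3′ on the gene's strand. Capitals mark matches on either strand to TCACNCCA (an SREBP half-site pattern), CCAAT (the NF-Y box) or CACGTG (an E-box).
Insig1, chr5:28071162-28071411, plus strand: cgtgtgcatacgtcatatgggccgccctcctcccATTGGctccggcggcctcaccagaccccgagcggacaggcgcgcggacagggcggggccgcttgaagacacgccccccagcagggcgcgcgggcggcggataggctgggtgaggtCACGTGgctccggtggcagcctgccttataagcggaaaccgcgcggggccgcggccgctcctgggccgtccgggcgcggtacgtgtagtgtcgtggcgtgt
Insig2, chr1:121332590-121332839, minus strand: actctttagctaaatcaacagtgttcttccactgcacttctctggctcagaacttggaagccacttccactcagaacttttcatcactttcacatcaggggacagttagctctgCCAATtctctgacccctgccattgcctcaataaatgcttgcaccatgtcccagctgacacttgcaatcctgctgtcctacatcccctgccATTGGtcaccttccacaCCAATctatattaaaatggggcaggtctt
Srebf1, chr11:60220628-60220877, minus strand: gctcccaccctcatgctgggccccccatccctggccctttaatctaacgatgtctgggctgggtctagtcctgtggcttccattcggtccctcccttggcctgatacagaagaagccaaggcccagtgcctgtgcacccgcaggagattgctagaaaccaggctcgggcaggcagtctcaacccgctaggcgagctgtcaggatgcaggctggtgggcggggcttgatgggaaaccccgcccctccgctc
Srebf2, chr15:82147019-82147268, plus strand: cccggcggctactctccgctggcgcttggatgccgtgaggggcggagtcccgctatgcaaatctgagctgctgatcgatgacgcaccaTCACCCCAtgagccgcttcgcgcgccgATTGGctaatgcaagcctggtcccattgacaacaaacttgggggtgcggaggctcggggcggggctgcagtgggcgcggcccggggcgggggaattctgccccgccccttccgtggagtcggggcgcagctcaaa

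The Srebf2 window held 1 match to the half-site pattern, from position -162 to -155 counted back from the start, and 1 CCAAT match from -135 to -131. The Insig1 window held a CCAAT match from -216 to -212 and an E-box from -101 to -96. In the Insig2 window 3 CCAAT matches were found, and in the Srebf1 window shown none of the 3 patterns. Of all 32851 windows in the table, 3.67% held TCACNCCA, 33.8% held CCAAT and 6.02% held CACGTG, and the 3 patterns do not overlap one another in these 4 windows. A match is a string of letters and not a measured binding site, and the lack of a match does not show that a site is absent. Whether these sequences bear on the differences between the paralogues was not tested. Insig2 had 3 windows in the table, and only the window shown held a match to any of the 3 patterns. Srebf1 had 2 further windows in the table, each with 1 CCAAT match, and an E-box was found in 1 of 2 windows of Scap. Which start the myotubes used was not measured. Stard4 and Npc1 had no window in the table.

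In the GENCODE vM21 annotation of GRCm38, Insig1 spans 28071363 to 28078662 on chromosome 5 and Insig2 spans 121304353 to 121332589 on chromosome 1. Stard4 lies at 33199355 to 33213862 and Npc1 at 12189692 to 12236400, both on chromosome 18. Srebf1 lies at 60199089 to 60222581 on chromosome 11, Srebf2 at 82147181 to 82205379 on chromosome 15 and Scap at 110333288 to 110384950 on chromosome 9. Counts are sums over the exons of a gene, so the 2 main forms of the Srebf1 transcript, which start at different first exons, were not separated. Exons of other genes overlap 13.2% of the exonic bases of Scap (5830462I19Rik, other strand), 5.31% of Npc1 (Gm15956 and Rmc1, other strand) and 3.11% of Srebf1 (Rai1 on the other strand and Mir6922). The library kit keeps strand, but the strand setting of the counting is not given in the sources used here, so these 3 genes could hold some reads of their neighbours.

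Library totals ranged from 22209306 to 30218420 counts, and the 7 genes had between 813 and 13889 counts in a library. Values below are CPM, the counts scaled to a common library size with edgeR's TMM factors, and p-values are from edgeR's quasi-likelihood test, adjusted over all 12184 genes. A gene is said to rise or fall where its adjusted p was under 0.05, and errors beside log2 fold changes are standard errors. The first principal component of all genes held 36.4% of the variance and set the 6 libraries with the saponin fraction, at 29.0 to 34.4, apart from the other 24, which were all below 0. Of 7 myotube markers 6 were in the table, all above 0 in every library. Markers of fat cells, bone and cartilage, endothelium and macrophages, summed separately for each type, reached at most 0.889 CPM in any library. Of the 2 macrophage markers only 1 was in the table. Adipoq and Plin1 were at 0 in 24 and 26 of the 30 libraries. In RNA from whole cultures, fewer cells of a type and less RNA per cell cannot be told apart.

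Per kilobase of exon, Srebf2 was the most abundant of the 7, with a median of 59.7 CPM per kb over the 30 libraries. Insig1 followed at 40.2, Insig2 at 29.7 and Srebf1 at 22.4 CPM per kb, and Scap at 9.93, Stard4 at 7.38 and Npc1 at 5.59 CPM per kb were lower. The order of Stard4 and Npc1 depends on the length used, since with the longest transcript of each gene Npc1 had 11.0 and Stard4 8.08 CPM per kb. The other 5 genes kept their order with that length.

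**Figure D1:**
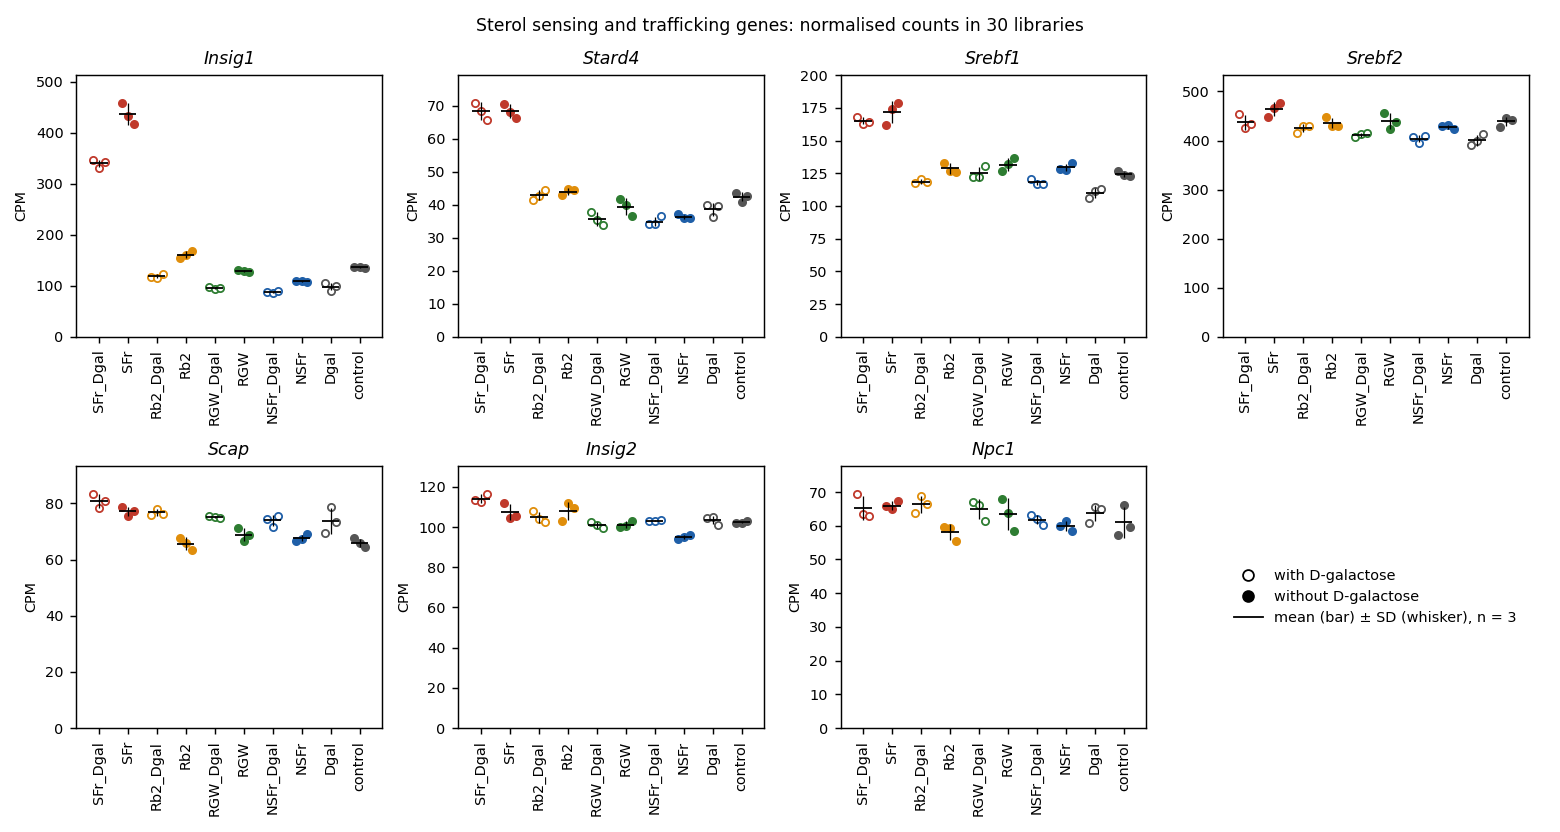
Normalised counts (CPM, vertical axis from 0, scales differ) of the 7 genes in each of the 30 libraries, by group along the horizontal axis. Open points are libraries with D-galactose and filled points those without, bars are means and whiskers SD (n = 3). The 6 saponin fraction libraries stand above all others for Insig1 (331 to 459 CPM), Stard4 (65.7 to 71.0 CPM) and Srebf1 (162 to 179 CPM), and the groups of Npc1 lie between 55.5 and 69.5 CPM.

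Insig1, the anchor that holds Scap in the endoplasmic reticulum, was read at 459, 433 and 416 CPM after SFr, against 137, 138 and 136 CPM in control. After SFr followed by D-galactose it was read at 346, 331 and 342 CPM, against 105, 90.3 and 100.1 CPM in Dgal. Each SFr library lay above each control library, and the SFr and SFr_Dgal libraries were the 6 highest of the 30. Insig1 rose 3.19-fold after SFr (log2 1.67 ± 0.041, adjusted p = 5.23e-26) and 3.45-fold in SFr_Dgal against Dgal (1.79 ± 0.042, adjusted p = 3e-26). Out of 12184 genes, this was the 74th highest log2 fold change after SFr and the 36th highest in SFr_Dgal.

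After Rb2 alone Insig1 stood at 155, 161 and 167 CPM, and in Rb2_Dgal at 117, 115 and 123 CPM. Each group lay above its own baseline without overlap, and the gene rose by 0.24 ± 0.041 against control (adjusted p = 0.000525) and by 0.26 ± 0.043 against Dgal (adjusted p = 0.000201). The non-saponin fraction went the other way, with 109, 109.7 and 107 CPM in NSFr and 87.5, 85.3 and 90.6 CPM in NSFr_Dgal. NSFr was below control in every library and Insig1 fell by 0.33 on the log2 scale (SE 0.042, adjusted p = 5.21e-06). In NSFr_Dgal against Dgal the groups overlapped and the fall was smaller (log2 -0.16 ± 0.043, adjusted p = 0.0177). That second call was lost without Dgal replicate 1 (log2 -0.12, adjusted p = 0.137), Dgal replicate 3 (adjusted p = 0.0834), NSFr_Dgal replicate 1 (0.0631) or NSFr_Dgal replicate 2 (0.0961).

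The water extract left Insig1 at 131, 129 and 126 CPM in RGW and 98.4, 94.3 and 95.3 CPM in RGW_Dgal. The log2 fold changes were -0.084 against control (95% interval -0.169 to 0.000840, adjusted p = 0.308) and -0.036 against Dgal (-0.124 to 0.0512, adjusted p = 0.703), and neither passed the test. Comparisons of the preparations with control share the 3 control libraries, and those with D-galactose share the 3 Dgal libraries, so they are not independent of one another.

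D-galactose alone lowered Insig1 by 0.47 on the log2 scale against control (SE 0.042, adjusted p = 3.20e-10), 1.39 times lower. With the sugar it was also lower after each preparation than after that preparation alone. The log2 fold change was -0.43 ± 0.042 in RGW_Dgal against RGW, -0.36 ± 0.040 in SFr_Dgal against SFr, -0.31 ± 0.043 in NSFr_Dgal against NSFr and -0.45 ± 0.042 in Rb2_Dgal against Rb2, with adjusted p-values from 2.21e-09 to 5.37e-06. In all 5 settings the 3 libraries with D-galactose lay below the 3 without. Ordering the 10 groups by mean, 8 of 9 neighbouring pairs had ranges that did not overlap, from SFr at 436 ± 21.6 CPM down to NSFr_Dgal at 87.8 ± 2.65 CPM (SD, n = 3), and the pair that overlapped was RGW_Dgal and Dgal.

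Whether a preparation's difference had another size with D-galactose than without it was tested directly. For Insig1 that difference of differences was 0.048 ± 0.060 for RGW, 0.11 ± 0.058 for SFr, 0.17 ± 0.060 for NSFr and 0.026 ± 0.059 for Rb2 on the log2 scale, with adjusted p-values of 0.85, 0.406, 0.529 and 0.986. Over the 7 genes edgeR called 0 in each of these 4 tests, and DESeq2 also called 0. Unadjusted p-values under 0.05 numbered 0 for RGW, 1 for SFr, 2 for NSFr and 1 for Rb2. The share of all genes under that unadjusted threshold was not counted, so these numbers cannot be set against a background. Few genes of any kind were called in these tests, with 0.583% of all genes for SFr, 0.041% for NSFr and 0% for RGW and for Rb2.

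**Figure D2:**
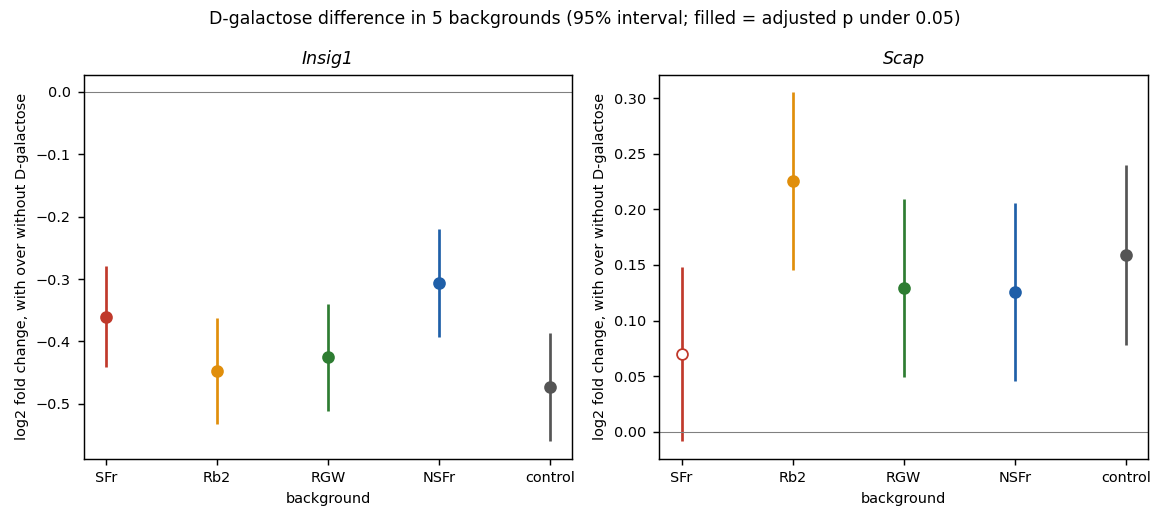
Log2 fold change of Insig1 (left) and Scap (right) with D-galactose over without it, after SFr, Rb2, RGW or NSFr and in vehicle (labelled control), with 95% intervals and filled points where adjusted p was under 0.05. All 5 Insig1 intervals lie below 0, from -0.31 in NSFr to -0.47 in vehicle, while all 5 Scap values lie above 0 and 4 of them passed the test.

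Insig2, the second anchor of the family, moved little. It was read at 113, 112 and 117 CPM in SFr_Dgal, against 105, 105 and 101 CPM in Dgal, with no overlap and a rise of 0.14 ± 0.033 (adjusted p = 0.00103). After SFr alone it was read at 112, 105 and 106 CPM, against 102, 102 and 103 CPM in control, and although these did not overlap, the log2 fold change of 0.068 ± 0.033 had an adjusted p of 0.101. After NSFr it fell by 0.11 on the log2 scale (SE 0.034, adjusted p = 0.0394), with 94.0, 94.9 and 96.3 CPM against the same control libraries. That call was lost when any 1 of the 6 libraries was left out, with adjusted p from 0.0752 without NSFr replicate 3 to 0.136 without NSFr replicate 1, and also with no filter on low counts (0.073) and with only the groups compared in the fit (0.145). Over the 10 groups, 7 of 9 neighbouring pairs overlapped.

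The ratio between the 2 anchors was highest with the saponin fraction. Per kilobase, Insig1 over Insig2 was 4.56 ± 0.115 in SFr and 1.67 ± 0.0503 in Rb2, against 1.5 ± 0.0195 in control (SD, n = 3). The ratio was 3.35 ± 0.0725 in SFr_Dgal and 0.956 ± 0.0270 in NSFr_Dgal, the lowest of the 10 groups, against 1.07 ± 0.0883 in Dgal. With the longest transcript as length it was 4.06 in SFr, 1.49 in Rb2 and 1.33 in control, and 2.98 in SFr_Dgal, 0.851 in NSFr_Dgal and 0.95 in Dgal, so that whether the ratio in Dgal lies above or below 1 depends on the length used.

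**Figure D3:**
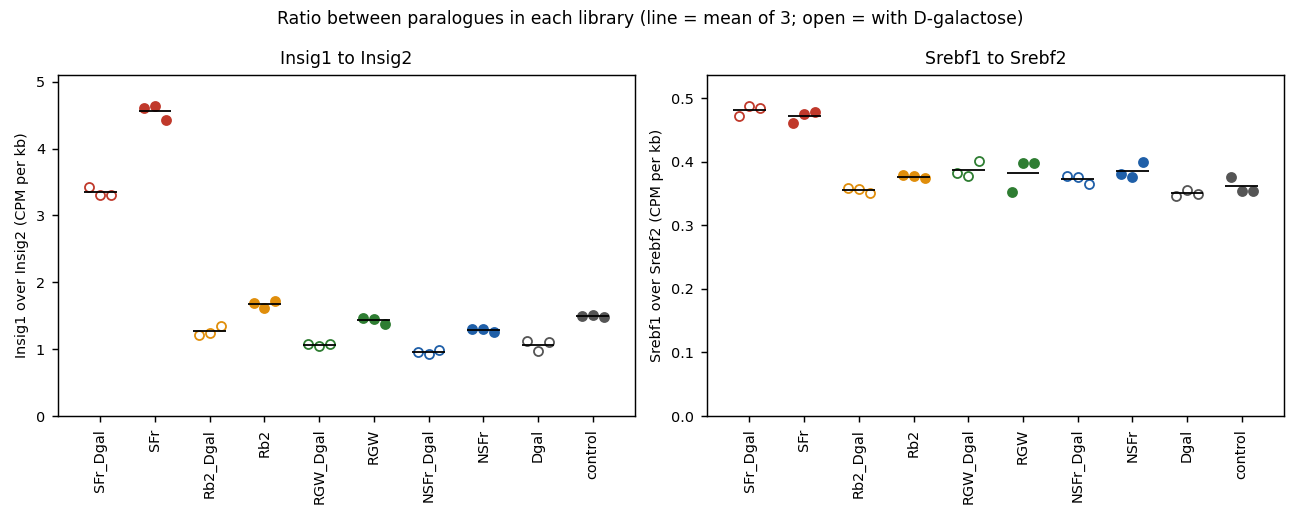
Ratio of CPM per kb of exon between paralogues in each library, Insig1 over Insig2 (left) and Srebf1 over Srebf2 (right), with a line at the mean of 3 libraries and open points for D-galactose. SFr and SFr_Dgal stand apart in both panels, at 4.43 to 4.64 and 3.30 to 3.43 for the INSIG pair and at 0.462 to 0.489 for the SREBP pair.

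Scap, the escort of the SREBP precursors, was higher with the saponin fraction and with D-galactose. Its libraries had 78.8, 75.4 and 77.3 CPM in SFr, against 67.6, 66.0 and 64.6 CPM in control, without overlap and with a rise of 0.22 ± 0.039 (adjusted p = 1.59e-05). In SFr_Dgal it had 83.4, 78.5 and 81.0 CPM, against 69.5, 78.6 and 73.3 CPM in Dgal. These groups overlapped at Dgal replicate 2, and the rise was 0.14 ± 0.039 (adjusted p = 0.00555). Without Dgal replicate 1 it was 0.092 (adjusted p = 0.0759), and with only the groups compared in the fit the adjusted p was 0.0507.

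D-galactose alone raised Scap by 0.16 ± 0.040 against control (adjusted p = 0.00328). The call was lost without Dgal replicate 2 (0.12, adjusted p = 0.0512). Scap also rose by 0.13 ± 0.039 in RGW_Dgal against RGW, 0.13 ± 0.039 in NSFr_Dgal against NSFr and 0.23 ± 0.039 in Rb2_Dgal against Rb2, and the value in SFr_Dgal against SFr was 0.070 (95% interval -0.00828 to 0.148, adjusted p = 0.216). The call for NSFr was lost without NSFr replicate 1 or 2 or NSFr_Dgal replicate 1 or 3 (adjusted p from 0.0839 to 0.114). For RGW it was lost without RGW replicate 2 (0.109), RGW replicate 3 (0.0574) or RGW_Dgal replicate 2 (0.0507), and with only the groups compared in the fit (0.0593). The value with D-galactose was positive for Scap and negative for Insig1 in 5 of 5 settings.

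Srebf1 encodes the SREBP forms best known for driving fatty acid synthesis. Its libraries had 162, 174 and 179 CPM in SFr, against 126, 124 and 123 CPM in control, and 168, 163 and 165 CPM in SFr_Dgal, against 106, 111 and 113 CPM in Dgal. Neither pair of groups overlapped. Srebf1 rose 1.38-fold after SFr (log2 0.47 ± 0.037, adjusted p = 1.43e-12) and 1.5-fold in SFr_Dgal (0.59 ± 0.038, adjusted p = 6.62e-15).

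Under D-galactose the water extract also raised Srebf1, with 122, 122 and 131 CPM in RGW_Dgal against the Dgal libraries above, by 0.18 ± 0.038 (adjusted p = 0.00264). In RGW, NSFr, Rb2, NSFr_Dgal and Rb2_Dgal, each against its own baseline, Srebf1 did not pass the test, with log2 fold changes between 0.050 and 0.11. D-galactose alone lowered Srebf1 by 0.18 on the log2 scale against control (SE 0.038, adjusted p = 0.000744), without overlap. It also fell in NSFr_Dgal against NSFr (-0.13 ± 0.037, adjusted p = 0.0152) and in Rb2_Dgal against Rb2 (-0.12 ± 0.038, adjusted p = 0.0237). The NSFr call was lost without NSFr replicate 3 (adjusted p = 0.0858) or NSFr_Dgal replicate 2 (0.0701) or 3 (0.0655), and the Rb2 call without Rb2 replicate 1 (0.148) or Rb2_Dgal replicate 1 (0.0843) or 3 (0.0744).

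Srebf2, the SREBP gene tied mainly to cholesterol synthesis and LDL uptake, lay between 390.5 and 477 CPM in all 30 libraries. It was read at 455, 425 and 433 CPM in SFr_Dgal, against 390.5, 399 and 412 CPM in Dgal, without overlap and with a rise of 0.13 ± 0.034 (adjusted p = 0.00246). After SFr alone it was read at 448, 467 and 477 CPM, against 428, 446 and 442 CPM in control, a log2 fold change of 0.081 ± 0.033 that passed narrowly (adjusted p = 0.0494). That call was lost in 9 of 11 alternatives, including RLE scaling (adjusted p = 0.0605), no filter on low counts (0.0574), only the groups compared (0.146), and leaving out control replicate 1 (0.134), 2 (0.0665) or 3 (0.0751) or SFr replicate 2 (0.102) or 3 (0.177). D-galactose alone lowered Srebf2 by 0.13 on the log2 scale (SE 0.034, adjusted p = 0.00385), with no overlap between Dgal and control.

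The ratio of Srebf1 to Srebf2 per kilobase was also higher with the saponin fraction. It averaged 0.482 ± 0.00888 in SFr_Dgal and 0.472 ± 0.00883 in SFr (SD, n = 3), and between 0.350 and 0.387 in the other 8 groups. The lowest SFr or SFr_Dgal library, at 0.462, lay above the highest of the other 24, at 0.402.

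Stard4, the sterol carrier, was read at 70.5, 68.1 and 66.4 CPM in SFr, against 43.6, 40.9 and 42.6 CPM in control. In SFr_Dgal it had 71.0, 68.5 and 65.7 CPM, against 40.0, 36.3 and 39.5 CPM in Dgal. Its other 24 libraries all lay between 33.8 and 44.7 CPM, below the 6 saponin fraction libraries. Stard4 rose 1.61-fold after SFr (log2 0.69 ± 0.048, adjusted p = 5.16e-14) and 1.77-fold in SFr_Dgal (0.82 ± 0.049, adjusted p = 8.80e-16).

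After NSFr, Stard4 fell by 0.22 on the log2 scale (SE 0.051, adjusted p = 0.0056), with 37.1, 36.0 and 36.1 CPM, all below control. Under D-galactose the value for NSFr was -0.15 (adjusted p = 0.0846) and for Rb2 0.15 (adjusted p = 0.126). D-galactose alone gave -0.13 (95% interval -0.239 to -0.0306, adjusted p = 0.0506), just outside the threshold, and it passed without control replicate 2 (0.0454) or Dgal replicate 1 (0.0470). In SFr_Dgal against SFr the log2 fold change of Stard4 was 0.0016 (95% interval -0.0919 to 0.0951), beside -0.36 for Insig1 in the same libraries.

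Npc1, the lysosomal cholesterol exporter, had the smallest ratio between its highest and lowest group means of the 7, although its median CV within groups, 3.93%, was the largest. It lay between 55.5 and 69.5 CPM, and all 9 neighbouring pairs of groups overlapped. It was read at 65.8, 64.8 and 67.3 CPM in SFr, against 57.2, 66.1 and 59.7 CPM in control, and the log2 fold change of 0.12 (95% interval 0.00992 to 0.221) had an adjusted p of 0.0716. Without control replicate 2 that value was 0.17 and passed (adjusted p = 0.0127). Npc1 was called higher in 3 other comparisons, SFr against NSFr (0.14 ± 0.052, adjusted p = 0.0321), SFr against Rb2 (0.18 ± 0.052, adjusted p = 0.00443) and Rb2_Dgal against Rb2 (0.19 ± 0.052, adjusted p = 0.00821). Of these, the first was lost without SFr replicate 1 (0.0590) or 3 (0.0862) or NSFr replicate 1 (0.0670) or 3 (0.0976), and the third without Rb2 replicate 3 (0.0573) or Rb2_Dgal replicate 2 (0.0554).

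Counted together, 5 of the 7 genes rose and 0 fell after SFr, where 43.1% of all tested genes were called and 21.3% were called higher. In SFr_Dgal against Dgal 6 rose and 0 fell, beside 41.3% of all genes called and 20.3% called higher. After Rb2 only Insig1 of the 7 rose, beside 1.53% of all genes called and 0.575% called higher, and in Rb2_Dgal against Dgal again only Insig1, beside 2.26% and 1.16%. NSFr lowered Insig1, Stard4 and Insig2 and raised none, beside 8.08% of all genes called and 3.51% called lower. NSFr_Dgal against Dgal lowered Insig1 alone, beside 6.33% called and 2.82% called lower, and RGW_Dgal raised Srebf1 alone, beside 5.06% called and 2.52% called higher. For RGW against control edgeR and DESeq2 both called 0 of the 7, beside 3.21% of all genes by edgeR. In that comparison 2 of the 7 had an unadjusted p under 0.05, a threshold for which the share of all genes was not counted. D-galactose against control raised Scap and lowered Insig1, Srebf1 and Srebf2, beside 25.1% of all genes called, 11.9% higher and 13.1% lower. The median log2 fold change of the 7 was 0.22 after SFr, 0.14 in SFr_Dgal and -0.13 in Dgal, against 0.0005, -0.0055 and -0.0042 over all genes tested. Since the 7 genes were chosen with earlier results of these data known, these counts are descriptions and not independent evidence.

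**Figure D4:**
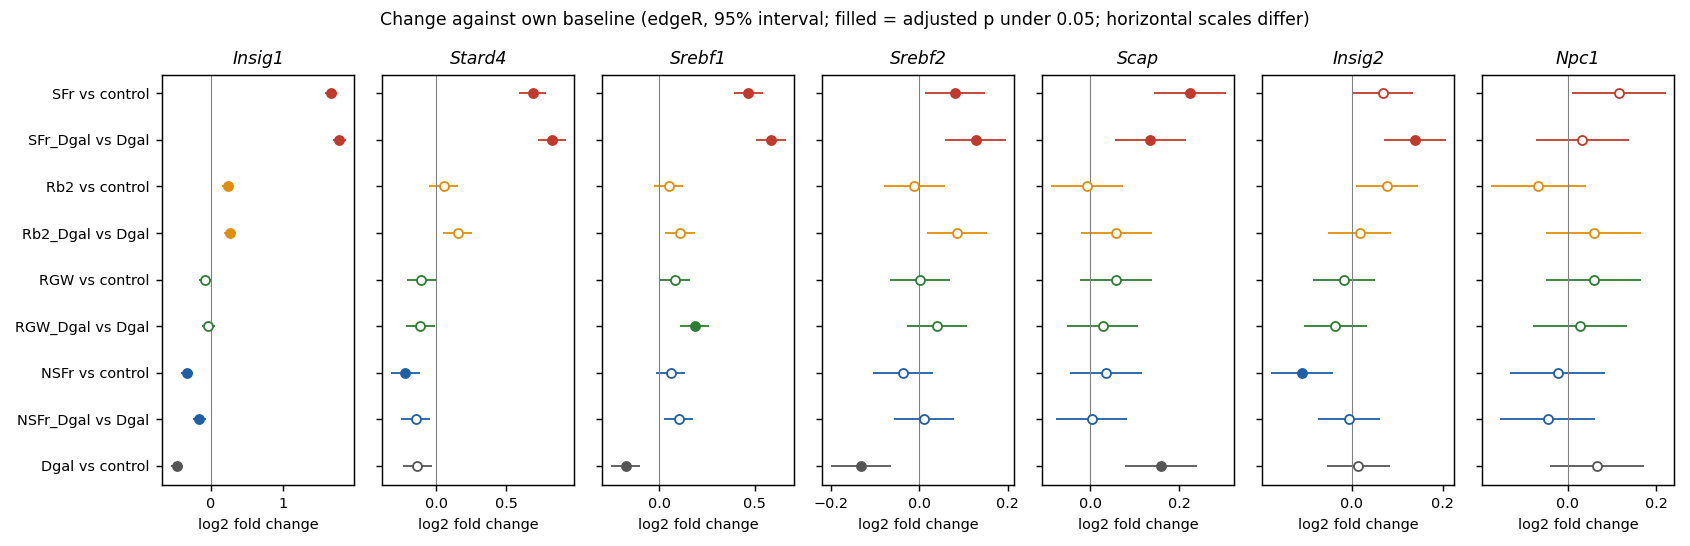
Log2 fold change (horizontal axis, scales differ between panels) of each of the 7 genes against its own baseline in 9 comparisons, with 95% intervals and filled points where adjusted p was under 0.05. Insig1 reached 1.67 and 1.79 with the saponin fraction, Stard4 0.69 and 0.82 and Srebf1 0.47 and 0.59, while the other 4 genes stayed between -0.13 and 0.22.

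Set directly against the non-saponin fraction, SFr had all 7 genes higher, beside 40.4% of all genes called and 20.8% called higher. SFr_Dgal had 6 of 7 higher than NSFr_Dgal, beside 41% called and 20.7% called higher. Insig1 differed most, by 2.01 ± 0.042 without and 1.95 ± 0.042 with D-galactose, followed by Stard4 at 0.91 ± 0.049 and 0.97 ± 0.049 and Srebf1 at 0.41 ± 0.037 and 0.48 ± 0.037. Against Rb2, which was given at 20 µM where the fraction was given at 100 µg/mL, SFr had 6 genes higher, beside 43.9% of all genes called and 21.9% called higher. Of these, Srebf2 overlapped between the groups (log2 0.092 ± 0.033, adjusted p = 0.0249), and its call was lost without SFr replicate 2 (adjusted p = 0.0676) or 3 (0.123) or Rb2 replicate 2 (0.0809) or 3 (0.0685). SFr_Dgal had 4 genes higher than Rb2_Dgal, beside 41.4% and 20.3%. Insig1 differed by 1.44 ± 0.041 and 1.52 ± 0.041 in these. Between a preparation with D-galactose and the same preparation alone, 1 of the 7 was called for SFr (Insig1, lower), beside 19% of all genes called and 10.5% called lower. For RGW 1 was higher (Scap) and 1 lower (Insig1), beside 15.2% called, 6.3% higher and 8.93% lower. For NSFr 2 were higher (Scap and Insig2, the second by 0.12 ± 0.034 and lost without NSFr replicate 1, adjusted p = 0.0587) and 2 lower (Insig1 and Srebf1), beside 12.7% called, 5.76% higher and 6.98% lower. For Rb2 2 were higher (Scap and Npc1) and 2 lower (Insig1 and Srebf1), beside 21% called, 9.81% higher and 11.2% lower.

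Other measures moved with the saponin fraction. The 6 detected myotube markers summed to 11776 to 12623 CPM in SFr, against 16378 to 18020.3 CPM in control, and to 13473 to 14263 CPM in SFr_Dgal, against 15236 to 15963 CPM in Dgal. Single markers were not compared between groups, and these sums lean on the most abundant genes. Over the 30 libraries Ttn ranged from 1065 to 4463 CPM and Myh3 from 1820 to 4528 CPM. Acta1 ranged from 6303 to 7790, Tnnt3 from 1329 to 1774, Myog from 751 to 1317 and Ckm from 137 to 283 CPM. Myoblast and cycling markers, all 3 of 3 detected, summed to 64.3 to 76.0 CPM in SFr, against 98.0 to 107 CPM in control, and to 61.1 to 66.4 CPM in SFr_Dgal, against 81.2 to 84.3 CPM in Dgal. Fat cell markers summed to 0.160 to 0.245 CPM in SFr, against 0 to 0.103 CPM in control, levels of a few counts a library. Among them Fabp4 alone reached 0.245 CPM, while Adipoq and Plin1 reached at most 0.0450 and 0.0391 CPM in any library. The part of all these markers in the results for the 7 genes was not tested. The share of mitochondrially encoded counts was between 0.727% and 1.69% in the 30 libraries.

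The genes that surround this loop were counted from 5 lists, also chosen with earlier results of these data known. Of 22 cholesterol synthesis enzymes, 21 rose and 1 fell after SFr and likewise in SFr_Dgal, with median log2 fold changes of 0.56 and 0.58, beside 43.1% and 41.3% of all genes called in these comparisons. Tm7sf2, a sterol reductase, had 31.9 ± 0.519 CPM in SFr and 15 ± 1.31 CPM in control (SD, n = 3), a rise of 1.09 ± 0.074. Cyp51, the lanosterol demethylase, had 399 ± 8.85 CPM in SFr and 214 ± 2.84 CPM in control, a rise of 0.90 ± 0.036. In the opposite direction, 12 fell and 0 rose after NSFr, in NSFr_Dgal and in Dgal, with medians of -0.18, -0.16 and -0.15. That is 54.5% of the list in each, beside 8.08% of all genes called after NSFr, 6.33% in NSFr_Dgal and 25.1% in Dgal, and 3.51%, 2.82% and 13.1% called lower. Msmo1, a sterol oxidase of the steps that follow, fell by 0.37 on the log2 scale after NSFr (SE 0.042, adjusted p = 2.78e-06), and Nsdhl, which acts beside it, by 0.28 with D-galactose (SE 0.039, adjusted p = 2.42e-06). RGW lowered 7 and raised 0, beside 3.21% of all genes called, and RGW_Dgal lowered 7 and raised 2, beside 5.06%. Rb2 and Rb2_Dgal each raised 1 and lowered 0, beside 1.53% and 2.26% of all genes called.

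Among the 12 tested genes of SREBP processing and INSIG turnover, 3 rose and 1 fell after SFr, with a list median of 0.017, and in SFr_Dgal 2 rose and 1 fell. These are 33.3% and 25% of the list, below the 43.1% and 41.3% of all genes called. The largest rise after SFr was that of Tmem41b, by 0.34 ± 0.040. Rnf145, an endoplasmic reticulum ubiquitin ligase, rose by 0.20 ± 0.038 after SFr. It rose about as much after RGW (0.20 ± 0.038, adjusted p = 0.00154) and NSFr (0.19 ± 0.038, adjusted p = 0.00183), and was not called after Rb2. Sec23a, a subunit of the vesicle coat that carries cargo out of the endoplasmic reticulum, fell after SFr by 0.18 on that scale (SE 0.033). With D-galactose alone 1 rose and 2 fell, 25% of the list beside 25.1% of all genes. Mbtps1, the first protease that cuts SREBP precursors, had 139 ± 3.42 CPM in Dgal and 169 ± 3.35 CPM in control (log2 -0.29 ± 0.033, adjusted p = 3.88e-08).

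Of 22 genes of sterol uptake, lysosomal exit, transport and storage, 7 rose and 2 fell after SFr, and 6 rose and 3 fell in SFr_Dgal. In both this is 40.9% of the list, close to the 43.1% and 41.3% of all genes called. Npc2, the soluble partner that hands cholesterol to Npc1 in the lysosome, had 425 ± 9.46 CPM in SFr and 322 ± 15.3 CPM in control, a rise of 0.40 ± 0.040 (adjusted p = 4.16e-10). In Dgal 4 of these genes fell and 0 rose, 18.2% of the list, beside 25.1% of all genes called and 13.1% called lower. Npc2 was among those that fell (-0.18 ± 0.041, adjusted p = 0.00159). The lipoprotein receptor gene Lrp8 rose by 0.94 ± 0.119 after SFr at a low level, 8.58 CPM in SFr and 4.49 CPM in control.

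Of 8 LXR pathway genes, 7 rose and 0 fell after SFr, beside 43.1% of all genes called, with the cholesterol exporters Abca1 at 1.68 ± 0.131 and Abcg1 at 1.07 ± 0.083. In RGW_Dgal 3 rose and 0 fell, beside 5.06% of all genes called. Of the 7 sterol sensing genes only Srebf1, a known LXR target, rose there. It averaged 125 CPM in RGW_Dgal, 110 CPM in Dgal and 124 CPM in control, and a part of LXR in this was not tested. Of 14 fatty acid enzymes linked to SREBP1, 11 rose and 2 fell both after SFr and in SFr_Dgal, beside 43.1% and 41.3% of all genes called. Scd1, a fatty acid desaturase, rose by 0.92 ± 0.035 and 0.87 ± 0.035. Lists of cholesterol enzymes and of SREBP targets share their regulation with Insig1 and Stard4 by prior knowledge, so their counts are not independent evidence.

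**Figure D5:**
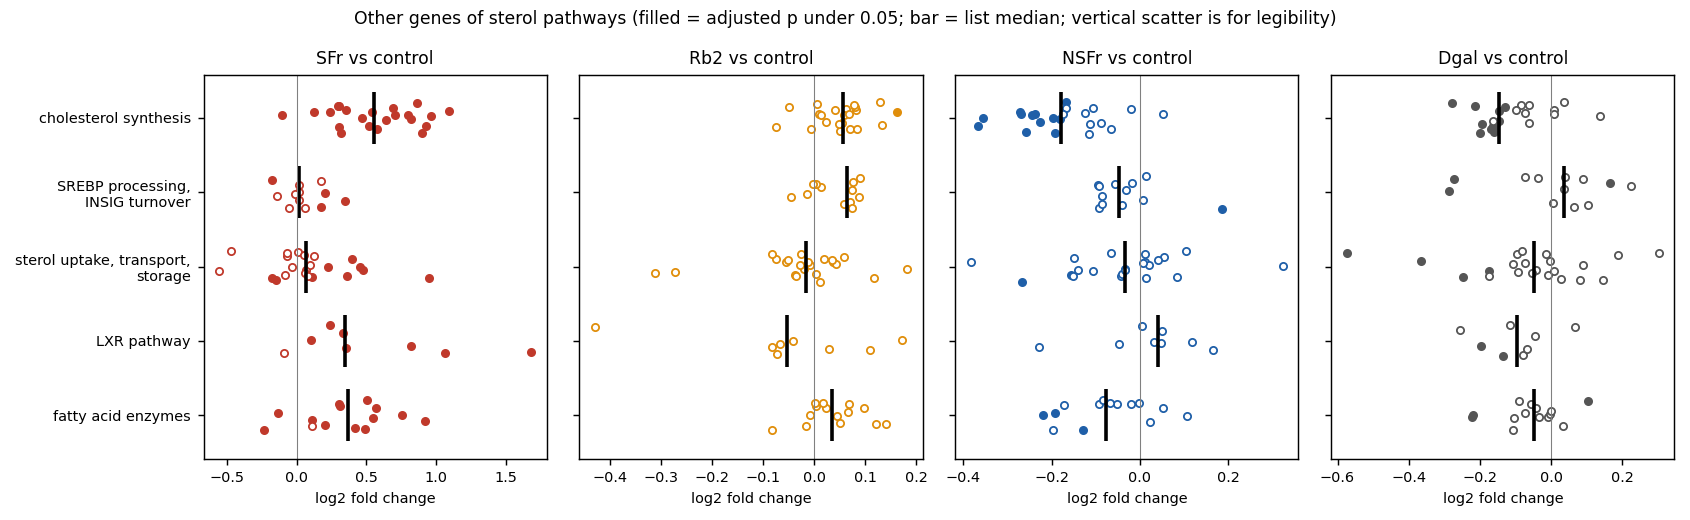
Log2 fold change (horizontal axis, scales differ) of each tested gene in 5 lists after SFr, Rb2, NSFr and D-galactose against control, filled where adjusted p was under 0.05, with a bar at each list's median. The median of cholesterol synthesis enzymes is 0.56 after SFr, 0.056 after Rb2, -0.18 after NSFr and -0.15 after D-galactose.

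Among 9620 genes compared by the correlation of mean log2 CPM over the 10 groups, the 3 most like Insig1 were Nsdhl (r = 0.991), Scd2 (0.989) and Nabp1 (0.989). Since the saponin fraction groups stand apart, the same r over the 8 groups without them was 0.978, 0.961 and 0.924. Ranked over those 8 groups alone, other genes were nearest to Insig1, namely Gpt2 (0.994), Cdh11 (0.990) and Fbxw2 (0.988). Over all 10 groups their r was -0.278, -0.202 and 0.796. For Stard4, 2 of its 3 nearest were Hmgcs1 (0.998, and 0.986 over 8 groups) and Idi1 (0.994, and 0.972), both enzymes of the early cholesterol pathway. For Srebf1 they were Gxylt2 (0.988), Glul (0.986) and Ank (0.984), and for Npc1 they were Ogdh (0.930), Usp22 (0.926) and Acox3 (0.899). The genes nearest Insig2 were Tmed1 (0.978), Rchy1 (0.958) and Msantd4 (0.956), those nearest Srebf2 were Cyb5b (0.966), Chuk (0.965) and Arf1 (0.963), and those nearest Scap were G6pc3 (0.976), Cacng1 (0.973) and Nub1 (0.962). These values are descriptions over groups that share controls, and no p is given.

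Within the 7 genes, Insig1 followed Stard4 closely over the 10 groups (r = 0.980, and 0.868 over the 8 without the saponin fraction). With Srebf1 its r was 0.942 over 10 groups and 0.544 over 8, and with Srebf2 0.810 and 0.868. Scap and Insig1 had an r of 0.396 over 10 groups and -0.729 over 8, so the sign turned once the saponin fraction groups were left out, and the same happened for Npc1 and Insig1 (0.323 and -0.488). Scap and Npc1 had 0.862 and 0.855, and Srebf1 and Stard4 had 0.892 and 0.114.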

How the data were processed

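The authors deposited expected counts per gene, whole-series and not normalized, with reads that match more than 1 gene divided among them by RSEM. Per the submitters' processing notes, RSEM 1.3.3, STAR 2.7.9a, Trim Galore 0.6.10 and FastQC 0.11.9 were used, with GRCm38 and mm10. Of the values, 19.4% were not whole, and all were rounded. A count of 3 equals 0.0993 to 0.135 CPM of the library total, without TMM factors.

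Tests were run with edgeR 4.0.16 (quasi-likelihood, robust, TMM, filterByExpr) in R 4.3.3, with 1 group model over 30 libraries and Benjamini-Hochberg adjustment over 12184 of 16025 genes, called at an adjusted p under 0.05. Standard errors were obtained as |log2 fold change| over √F. The spread between libraries beyond sampling noise, which edgeR calls biological variation, was 4.25% and may be technical. The test was checked on simulated counts: for Dgal against control, where 50 genes per fold size were changed among 12103, 80% were recovered at 1.3-fold and 98% at 1.5-fold, with 12 false calls over all folds. For SFr against control, among 12100 genes, 90% and 92% were recovered, with 9 false calls. Smaller changes were not simulated. The changed genes all had means above 50 counts, and they were far fewer than the genes called in the data. Recovery and false calls in the data may therefore differ from these values. The 30 replicate pairs differed by more than sampling noise (chi-square per degree of freedom 2.48 to 13.7), so none was merged.

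Alternatives were DESeq2 1.42.0, RLE scaling, no filter, a replicate block, a fit of the compared groups alone and the omission of single libraries. Lists named at most 4 genes per comparison, those with the largest change among called genes of at least 5 CPM whose groups did not overlap, and the text gives some of them. Likeness used genes of at least 5 CPM. Some list genes are counted but not reported here by name. Members, lists and tests were chosen with earlier results of these data known. Promoter sequences are RefSeq's (GRCm38.p6). Of the gene symbols, 16021 matched GENCODE vM21.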

Additional observations from a re-analysis of the deposited data

How the results depend on the processing

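Over 77 results for single genes and 883 alternative values, 823 kept their direction and side of the threshold, 49 lost a call, 4 gained one and 7 turned sign. The 7 that turned were uncalled values near 0. Insig1 in RGW_Dgal against Dgal ranged from -0.0965 to 0.00709 with 1 library left out, Stard4 in SFr_Dgal against SFr from -0.0226 to 0.0332 (-0.0164 without SFr replicate 3), and the difference of differences of Insig1 ranged from -0.0129 (without Dgal replicate 2) to 0.0907 for RGW. For Rb2 it ranged up to 0.0722 and was -0.0314, -0.00422 and -0.00474 without Dgal replicate 2, Rb2 replicate 1 and Rb2_Dgal replicate 3.

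With each library left out in turn, the number of the 7 genes called ranged from 0 to 1 in NSFr_Dgal against Dgal (1 with all libraries), from 1, without RGW_Dgal replicate 2, to 3 in RGW_Dgal against RGW (2 with all) and from 1 to 3, the highest without SFr replicate 1, in SFr_Dgal against SFr (1 with all, and 2 without SFr_Dgal replicate 1). In NSFr_Dgal against NSFr it was 2 or 3, in place of 4 with all libraries, and was 2 without NSFr replicate 1 or NSFr_Dgal replicate 3. It was 1 in RGW_Dgal against RGW with only the groups compared, and 2 in SFr_Dgal against SFr with DESeq2. The cause was not tested, beyond the smaller number of samples.

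Replicate numbers are shared by the groups but did not pair the libraries: deviations from group means correlated with a median r of 0.0039 at the same number and 0.00063 at different numbers, and 10 of 30 libraries matched their own number best. With the replicate block the number of genes called went to 5 for D-galactose against control, where Stard4 passed (adjusted p = 0.0489), and to 4 for SFr against control, where Srebf2 did not (0.0551), and the other comparisons kept their number.

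Counts over all genes moved by more than 1.5 times in some comparisons, both with few and with many genes called. With only the groups compared, RGW against control had 91 called in place of 391, NSFr 508 in place of 984, Rb2 106 in place of 187, RGW_Dgal against Dgal 348 in place of 617, RGW_Dgal against RGW 1154 in place of 1855, SFr_Dgal against SFr 1466 in place of 2315, and the SFr and NSFr differences of differences 13 and 2 in place of 71 and 5. With a library left out the lowest counts were 353 in place of 771 for NSFr_Dgal against Dgal, 126 in place of 275 for Rb2_Dgal against Dgal and 1672 in place of 2562 for Rb2_Dgal against Rb2. DESeq2 called 19, 118 and 17 for the RGW, SFr and NSFr differences of differences, in place of 0, 71 and 5. With 3 libraries a group, log2 changes near 0.1 lie at the limit of what these counts resolve.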
